A study of Mus musculus with 4 samples.

Results

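The 10 contractile genes described here were Acta2, Actg2, Myh11, Mylk, Cnn1, Tagln, Myl9, Tpm2, Oxtr and Lmod1. They were chosen by symbol from the 24442 genes of a count table, with earlier results of these data known. All 10 were in the table and all 10 passed the filter on low counts, which left 11661 genes for testing. RNA was sequenced from mammary cells of 5-week-old female Lgr6-eGFP-CreErt2 mice, sorted by flow cytometry as lineage-negative and then as Lgr6-positive or Lgr6-negative, with 2 libraries of each population and 4 libraries in all. Mice of both populations carried the allele, which places a green fluorescent protein and an inducible Cre recombinase at the Lgr6 locus, and the labels name no treatment. The sources used here name neither the lineage markers nor the gate for Lgr6-negative cells, nor do they say whether replicates are separate animals, so p-values speak only to differences among these libraries, and their spread may be technical in origin.

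Myoepithelial cells form the basal layer of the mammary epithelium and contract to eject milk. Oxytocin from the pituitary binds its receptor on these cells, calcium rises, calmodulin activates myosin light chain kinase, and phosphorylated myosin pulls on filaments of smooth muscle actin. Vascular smooth muscle cells and some pericytes use the same proteins, so these genes do not by themselves mark the epithelium.

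The libraries held 6819127 and 6995568 counts (Lgr6-positive) and 6920996 and 7167465 counts (Lgr6-negative). Of these the ribosomal RNA gene Rn45s made up 17.2% and 14.5% (Lgr6-positive) and 18.7% and 30.8% (Lgr6-negative). Counts left for other genes were thus fewest in Lgr6-negative replicate 2. As a check on the labels, Lgr6 was counted 172 and 655 times in Lgr6-positive and 3 and 10 times in Lgr6-negative libraries (adjusted p = 0.0510). Levels are given as CPM, counts scaled to library size after TMM adjustment, and 3 counts corresponded to 0.368 to 0.533 CPM. Fold changes are log2 values, Lgr6-positive over Lgr6-negative, from edgeR's quasi-likelihood test, with p-values adjusted by Benjamini and Hochberg over all tested genes and a threshold of 0.05.

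Contractile genes were at higher levels in the Lgr6-positive libraries, but none passed the test. The 10 genes summed to 732.9 and 1008.5 CPM in Lgr6-positive but 210.9 and 222.4 CPM in Lgr6-negative libraries. Both Lgr6-positive libraries lay above both Lgr6-negative libraries for 9 of the 10 genes, where 30.0% of all tested genes did so and 25.9% lay the other way round. The median log2 fold change was 2.14, beside 0.10 over all tested genes. At the adjusted threshold 0 of 10 were higher and 0 lower in edgeR, against 4.49% and 4.57% of all tested genes. In simulated counts the same test called 4 of 67 genes changed 4-fold and 38 of 66 changed 16-fold. The simulation altered 67, 67 and 66 of 11095 genes, by 2-, 4- and 16-fold. The real libraries gave 524 higher and 533 lower calls. An adjusted threshold is easier to pass with more calls, so the simulated shares may be too low for these libraries. A missing call still does not show that a gene was unchanged. At an unadjusted p under 0.05, 4 of 10 were higher (Acta2, Lmod1, Myh11 and Mylk), against 14.3% of all tested genes. Lmod1 met the filter on its Lgr6-positive counts alone. Its place among these 4 genes, among the 9 without overlap and in other filtered settings was thus partly built in. Other settings called between 0 and 4 of the 10 higher. DESeq2 called the same 4, against 12.3% of its tested genes, and edgeR without the filter called Acta2, Lmod1 and Myh11, against 6.08%. With the replicate number as a block Acta2 and Myh11 passed (5.81% of all genes). Acta2 alone passed under library-size scaling (5.39%), DESeq2 size factors (5.06%), TMM without the ribosomal RNA gene Rn45s (4.66%) and a minimum count of 30 (5.5%), and Lmod1 alone in limma-voom (6.47%). Leaving out Lgr6-positive replicate 1, Acta2 and Lmod1 passed (6.16%), while none did without Lgr6-positive replicate 2 (4.12%) or Lgr6-negative replicate 1 (2.7%) or 2 (2.56%). In sorted bulk populations, fewer cells of a type and less RNA per cell cannot be told apart.

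**Figure D1:**
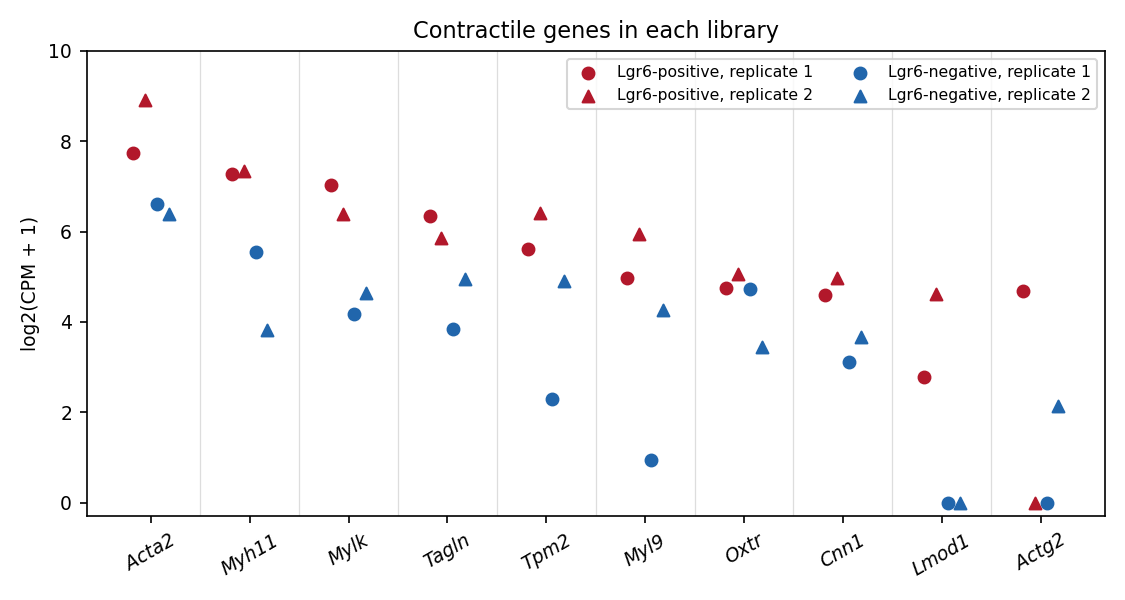
Level of each contractile gene in the 4 libraries, as log2(CPM + 1), with genes ordered by their mean in the Lgr6-positive population; red points are Lgr6-positive, blue points Lgr6-negative, circles replicate 1 and triangles replicate 2. The red points lie above the blue points for 9 genes, and Actg2 is at 0 in 1 library of each population.

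Acta2 encodes the smooth muscle alpha-actin of myoepithelial and vascular smooth muscle filaments and lies on chromosome 19 (GRCm38, 34241090 to 34255590, minus strand). Its counts were 1723 and 3766 (Lgr6-positive) against 619 and 467 (Lgr6-negative). This corresponded to 211.3 and 477.2 CPM against 96.6 and 83.0 CPM, so that the lower Lgr6-positive library was 2.19 times the higher Lgr6-negative one. The means were 344 ± 188 and 89.8 ± 9.59 CPM (SD, n = 2 libraries each, as for all means here), with a log2 fold change of 1.94 (SE 0.51). The adjusted p of 0.050002 lay just above the threshold, and Acta2 passed under 8 of 12 alternative settings, with adjusted p-values from 0.00409 to 0.226. Leaving out the library with the most Acta2, Lgr6-positive replicate 2, lowered the log2 fold change to 1.23.

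Actg2, the smooth muscle gamma-actin gene on chromosome 6 (83512905 to 83536265, minus strand), did not follow the populations. Its counts were 203 and 0 (Lgr6-positive) against 0 and 19 (Lgr6-negative), or 24.9, 0, 0 and 3.38 CPM. Each population thus had 1 library with the transcript and 1 without, and the groups overlapped. The fitted log2 fold change of 2.87 had an SE of 2.78 (adjusted p = 0.616) and turned to -6.50 without Lgr6-positive replicate 1 (adjusted p = 0.484). In the 2 libraries at 0, a count of 0 allows up to 3 counts, 0.380 and 0.468 CPM, a limit for counting error only, because PCR copies cannot be told from separate molecules here.

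Because these actins are close relatives, their sequences are shown to let the coding regions be compared. The coding sequences of Acta2 (transcript Acta2-201, 1131 bases without the stop codon) and Actg2 (Actg2-201, 1128 bases) were identical at 84.2% of aligned positions in GENCODE M21. The starts of both, 5′ to 3′ from the first coding base, are printed with capitals at bases that differ or have no partner in the other gene.
Acta2: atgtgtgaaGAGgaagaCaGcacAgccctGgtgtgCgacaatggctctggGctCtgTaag
Actg2: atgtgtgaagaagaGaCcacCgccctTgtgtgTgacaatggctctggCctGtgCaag
The longest identical run, from coding base 637 of Acta2 and 634 of Actg2, held 29 bases.
Shared run: gacatcaaggagaagctgtgctatgtagc
Reads were 50 bases long, and 0% of the 50-base words of Actg2 occurred in any other annotated gene. For Acta2 the share was 0.326%, from 7 words that the cytoplasmic actin gene Actg1 and some pseudogenes also hold. Reads with mismatches, and how RSEM divided reads between genes, were not examined.

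Myh11, the smooth muscle myosin heavy chain on chromosome 16 (14194535 to 14291372, minus strand), was counted 1251 and 1261 times in Lgr6-positive and 295 and 74 times in Lgr6-negative libraries. Its levels of 153.4 and 159.8 CPM stood above 46.0 and 13.2 CPM. The Lgr6-positive libraries differed by 1.04 times and the Lgr6-negative ones by 3.50 times. The log2 fold change was 2.4 (SE 0.74, adjusted p = 0.0795), and it passed under 3 of 12 alternative settings, the replicate block among them (0.0332).

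Myl9 encodes the regulatory light chain that the kinase phosphorylates and lies on chromosome 2 (156775420 to 156781658, plus strand). It had 249 and 482 counts against 6 and 102, or 30.5 and 61.1 CPM against 0.936 and 18.1 CPM. Every Lgr6-positive library was above every Lgr6-negative one, but the Lgr6-negative libraries differed from each other by 19.4 times. The log2 fold change of 2.26 (SE 1.42, adjusted p = 0.390) rose to 5.60 without Lgr6-negative replicate 2.

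Mylk, the myosin light chain kinase gene on chromosome 16 (34745210 to 35002420, plus strand), had 1051 and 657 counts against 109 and 135. Its levels were 128.9 and 83.2 CPM against 17.0 and 24.0 CPM, and the lower Lgr6-positive library was 3.47 times the higher Lgr6-negative one, the widest gap of the 9 genes with counts in both populations. The log2 fold change was 2.37 (SE 0.75, adjusted p = 0.0865, and 0.00765 to 0.269 over the alternatives). Exons of other annotated genes cover 6.88% of its exonic bases, and 1 of these genes, E130310I04Rik, had no counts in any library.

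Thin filament proteins followed. Tpm2, the beta-tropomyosin gene on chromosome 4 (43514711 to 43523765, minus strand), had 393 and 663 counts against 25 and 163, or 48.2 and 84.0 CPM against 3.90 and 29.0 CPM. Like Myl9, it differed between the Lgr6-negative libraries, with replicate 2 at 7.43 times replicate 1. Its log2 fold change was 2.01 (SE 1.13, adjusted p = 0.329), or 4.09 without Lgr6-negative replicate 2 and 1.18 without Lgr6-negative replicate 1.

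Cnn1 encodes calponin 1, an inhibitor of the myosin ATPase bound to actin, and lies on chromosome 9 (22099216 to 22109630, plus strand). It had 190 and 241 counts against 49 and 66, or 23.3 and 30.5 CPM against 7.65 and 11.7 CPM. The populations were apart by 1.99 times at their nearest libraries, yet the log2 fold change of 1.47 (SE 1.26, adjusted p = 0.555) was little more than its error.

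Tagln, the gene of the actin-binding protein transgelin (SM22) on chromosome 9 (45929619 to 45936058, minus strand), had 656 and 448 counts against 86 and 169. This gave 80.4 and 56.8 CPM against 13.4 and 30.0 CPM, with no overlap, and a log2 fold change of 1.66 (SE 0.90, adjusted p = 0.311). Its counts are uncertain, because exons of Pcsk7 and of the antisense gene Gm48529, both on the plus strand, cover 60.9% of its exonic bases, and the sources used here do not state whether counting used strand. Pcsk7 was at 28.6 and 29.3 CPM in Lgr6-positive and 42.0 and 30.6 CPM in Lgr6-negative libraries.

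Lmod1, leiomodin 1, nucleates actin filaments in smooth muscle and lies on chromosome 1 (135324807 to 135368065, plus strand). It was the member without any count in the Lgr6-negative libraries, beside 48 and 186 counts (5.89 and 23.6 CPM) in the Lgr6-positive ones. Against a floor of 3 counts per Lgr6-negative library it was at least 29.4-fold higher, or at least 11.8-fold and at least 47.1-fold without Lgr6-positive replicate 2 and 1. Its adjusted p was 0.0762, and it passed under 4 of 12 alternatives (0.00235 to 0.278). Lmod1 passed the filter through the Lgr6-positive libraries alone, so some difference was built into its being tested.

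Oxtr, the oxytocin receptor gene on chromosome 6 (112473683 to 112489943, minus strand), differed least. It had 213 and 255 counts against 163 and 56, or 26.1 and 32.3 CPM against 25.4 and 9.95 CPM. The lower Lgr6-positive library exceeded the higher Lgr6-negative one by 1.03 times, less than the libraries of either population differed from each other. The log2 fold change was 0.72 (SE 1.14, adjusted p = 0.783), and 0.21 without Lgr6-negative replicate 2.

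To order the members, levels were taken per kilobase of exon. On that scale Acta2 was first in every library, with 103.8 and 234.5 CPM per kilobase (Lgr6-positive) against 47.5 and 40.8 (Lgr6-negative). In Lgr6-positive replicate 1 Tagln (50.4), Myl9 (27.1), Myh11 (23.2) and Tpm2 (20.2) came next, and in replicate 2 Myl9 (54.1), Tagln (35.6), Tpm2 (35.3) and Myh11 (24.2). The order of these 4 genes thus changed between replicates of the same population. Below them in both libraries were Mylk (15.9 and 10.3), Cnn1 (9.24 and 12.1), Oxtr (5.45 and 6.75) and Lmod1 (1.49 and 5.97), with Mylk above Cnn1 in replicate 1 and below it in replicate 2. Actg2 was at 18.2 and 0.

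The basal keratins offered a scale that does not depend on scaling between libraries. Krt5 and Krt14, the intermediate filament pair of basal cells, both passed the test, with log2 fold changes of 4.03 (SE 0.57, adjusted p = 0.00400) and 4.59 (SE 0.42, adjusted p = 6.85e-04). The summed CPM of the 10 contractile genes per 100 CPM of the 2 keratins was 54.7 and 77.8 (Lgr6-positive) against 414.7 and 264.5 (Lgr6-negative). The ratio is compared between libraries and is not a level of one gene against another. On the log2 scale it was -0.62 ± 0.36 against 1.73 ± 0.46 (SD, n = 2 libraries each), a difference of -2.34. Both keratins rose by more than the members' median of 2.14, so a lower ratio in Lgr6-positive libraries is no separate result. Krt5 itself was at 20.3 and 59.2 CPM in the Lgr6-negative libraries. With 2 libraries against 2, an exact two-sided permutation test cannot give a p below 0.333, which is what it gave. The difference was -1.51 against the whole basal list and -2.41 per kilobase of exon.

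The same ratio for single genes was lower in both Lgr6-positive libraries for 7 of the 10 genes. That share was near the 76.7% of all tested genes for which this held, and so is no result about the contractile genes. Myl9 was the overlapping gene among the 8 with counts in every library, at 2.28 and 4.71 CPM per 100 CPM of keratin against 1.84 and 21.6. For Acta2 the values were 15.8 and 36.8 against 189.9 and 98.7, and for Oxtr 1.95 and 2.49 against 50.0 and 11.8.

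**Figure D2:**
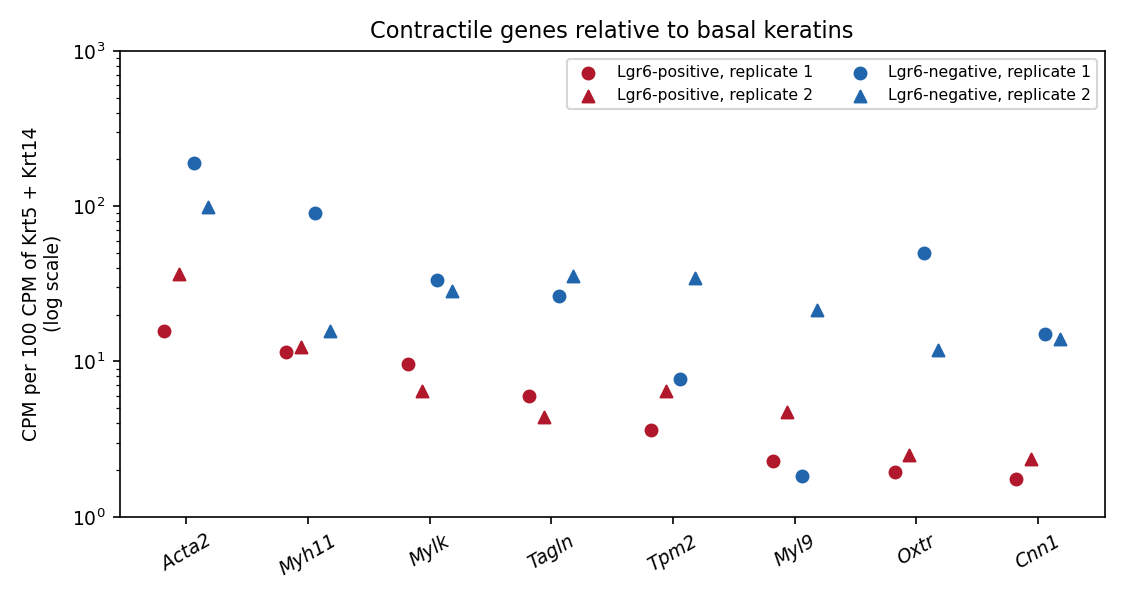
CPM of each contractile gene per 100 CPM of Krt5 and Krt14 summed, on a log axis, for the 8 genes with counts in all 4 libraries; red points are Lgr6-positive, blue points Lgr6-negative, circles replicate 1 and triangles replicate 2. The blue points lie above the red points for 7 genes and overlap them for Myl9.

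Other genes of the contractile machinery moved in both directions. Of 17 tested genes of the apparatus and of dense bodies, calls went to 6 higher and 2 lower genes and 9 had none, against 4.49% and 4.57% of all tested genes, with a median log2 fold change of 2.33. Pdlim3, a PDZ and LIM protein that binds alpha-actinin, was at 188 ± 70.9 CPM in Lgr6-positive and 6.83 ± 1.37 in Lgr6-negative libraries, a log2 fold change of 4.78 (SE 0.70, adjusted p = 0.00443). The nonmuscle calponin Cnn3 (5.51, SE 0.90), the adhesion plaque protein Lpp (2.39, SE 0.40) and the alpha-tropomyosin Tpm1 (3.55, SE 0.62) were also higher. So were Tns1, tensin 1 (3.33, SE 0.62), and Synpo2, synaptopodin 2, at 248 and 830 counts versus 1 and 0, which is 808 times as much (95% counting interval 145 to 31962.5). This ratio, and those of Plcb4, Myh14 and Rgs5 given further on, rest on 1 read in 1 Lgr6-negative library. Their intervals cover counting error only, not the spread between libraries, and the 4 genes passed the filter through the Lgr6-positive libraries alone. The lower genes were Cnn2, calponin 2 (-3.38, SE 0.70), and the filamin gene Flna (-1.48, SE 0.32). Over the same libraries the 10 leukocyte markers summed to 1981.5 and 2396.6 CPM (Lgr6-positive) against 30611.1 and 35559.5 CPM (Lgr6-negative), and the part of this in the lower genes was not tested. Leaving out Lgr6-negative replicate 1, there were 4 higher and 1 lower, with Tpm1 (adjusted p = 0.0539), Tns1 (0.0703) and Flna (0.0977) losing their calls. Without Lgr6-negative replicate 2, Cnn2 (0.153) and Flna (0.0745) did not pass, and Flna (0.0924) also did not under library-size scaling, nor did Cnn3 in limma-voom (0.0773).

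Among the genes of that list without a call, 3 were picked out after their values were seen. Smtn, smoothelin, had 98 and 77 counts against 22 and 61 (log2 fold change 0.61, adjusted p = 0.881). Cald1, caldesmon, had 587 and 265 against 130 and 276 (0.61, adjusted p = 0.775). Des, desmin, the muscle intermediate filament, was counted 4 times and 1 time in Lgr6-positive libraries, never in Lgr6-negative ones, and fell below the filter. Smtn and Cald1 overlapped between populations, whereas 12 of the 17 tested genes were higher and 3 lower in both Lgr6-positive libraries, beside 30.0% and 25.9% of all tested genes.

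Serum response factor (SRF) drives many smooth muscle genes together with myocardin or the related cofactors that actin dynamics control. Of its list, 8 genes were in the table and 6 were tested, of which 2 were higher, none was lower and 4 did not pass, beside 4.49% higher and 4.57% lower over all tested genes. Myocd, myocardin itself, had 0 counts in all 4 libraries. Of the 2 related cofactors, 1 passed. Mkl2, also called MRTF-B, rose from 54.1 ± 27.0 CPM in Lgr6-negative to 357.5 ± 70.0 in Lgr6-positive libraries, by 2.72 on the log2 scale (SE 0.53, adjusted p = 0.0151). Mkl1, also called MRTF-A, was at 29.2 ± 1.70 against 135.9 ± 10.6 CPM, with no overlap, but did not pass (-2.22, SE 0.64, adjusted p = 0.0643). Srf itself overlapped between populations, at 57.4 and 25.6 CPM against 47.9 and 26.7 (adjusted p = 0.955). The SRF and YAP target Cyr61 was higher (2.75, SE 0.69, adjusted p = 0.0417). Ctgf, a related target, had 797 and 116 counts against 19 and 46 and did not pass (3.33, SE 1.31, adjusted p = 0.149). Without Lgr6-negative replicate 2 Mkl2 did not pass (0.0713), and Cyr61 did not without Lgr6-positive replicate 1 (0.0632) or Lgr6-negative replicate 1 (0.125).

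SRF binds the CArG box, which was sought in the 250 bases before the RefSeq start site (GRCm38.p6), with at most 1 G or C allowed in its 6-base core of A and T. The motif reads the same on both strands. Of the 10 members 7 had such a window, and 2 of these 7 held a box, beside 8.59% of 32851 windows of all genes. Both members held 2 boxes. They are printed to show where the motif lies, 5′ to 3′ on the gene's strand, with the box in capitals; the window of Myl9 (chr2:156775214-156775419, plus strand) stops just before the first exon base that GENCODE annotates.
Myl9: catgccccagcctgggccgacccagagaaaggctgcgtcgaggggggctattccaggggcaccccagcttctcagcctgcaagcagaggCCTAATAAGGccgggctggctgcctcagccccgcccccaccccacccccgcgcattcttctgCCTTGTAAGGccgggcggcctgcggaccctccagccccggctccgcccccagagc
For Acta2, GENCODE draws the first exon over most of the window, and the sites alone are shown, with boxes that start 84 and 34 bases before the RefSeq start (chr19:34255438-34255467 and chr19:34255388-34255417, minus strand).
Acta2 far site: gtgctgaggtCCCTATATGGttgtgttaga
Acta2 near site: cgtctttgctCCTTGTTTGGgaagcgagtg
A match describes these letters only. Lmod1, Cnn1, Tpm2, Mylk and Oxtr had no match in their windows.

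Genes that carry the signal from the oxytocin receptor to myosin were called about as often as genes in general. Of 23 tested genes of the calcium and myosin phosphatase list, calls went to 1 higher and 1 lower gene and 21 had none, near the 4.49% and 4.57% of all tested genes and so no result about the list, with a median log2 fold change of 0.75. Plcb4, a phospholipase C beta that G proteins activate, was at 528 and 257 counts versus 0 and 1, which is 589 times as much (95% counting interval 105 to 23283), and lost its call without Lgr6-negative replicate 1 (adjusted p = 0.0658). Itpr3, an inositol trisphosphate receptor, was at 109.8 ± 25.7 against 29.7 ± 1.79 CPM (1.89, SE 0.69, adjusted p = 0.125). Ppp1r14a, the smooth muscle inhibitor of myosin phosphatase also called CPI-17, had 1 count in 1 library.

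Of 5 tested actin and myosin heavy chain relatives, 1 was higher and 1 lower, beside 4.49% and 4.57% of all tested genes. Nonmuscle Myh14 was at 981 and 740 counts versus 1 and 0, which is 1291 times as much (95% counting interval 231 to 51009.9). Cytoplasmic Actb fell to 3429 ± 226 from 11727 ± 1167 CPM, a log2 fold change of -1.77 (SE 0.17, adjusted p = 8.39e-04), the opposite direction to Acta2. Actg1 (-0.58, SE 0.22, adjusted p = 0.137) and Myh9 (0.46, SE 0.34, adjusted p = 0.478) did not pass. The skeletal and cardiac actins Acta1 and Actc1 had 1 and 0 counts in all, so these striated muscle actins were nearly absent.

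**Figure D3:**
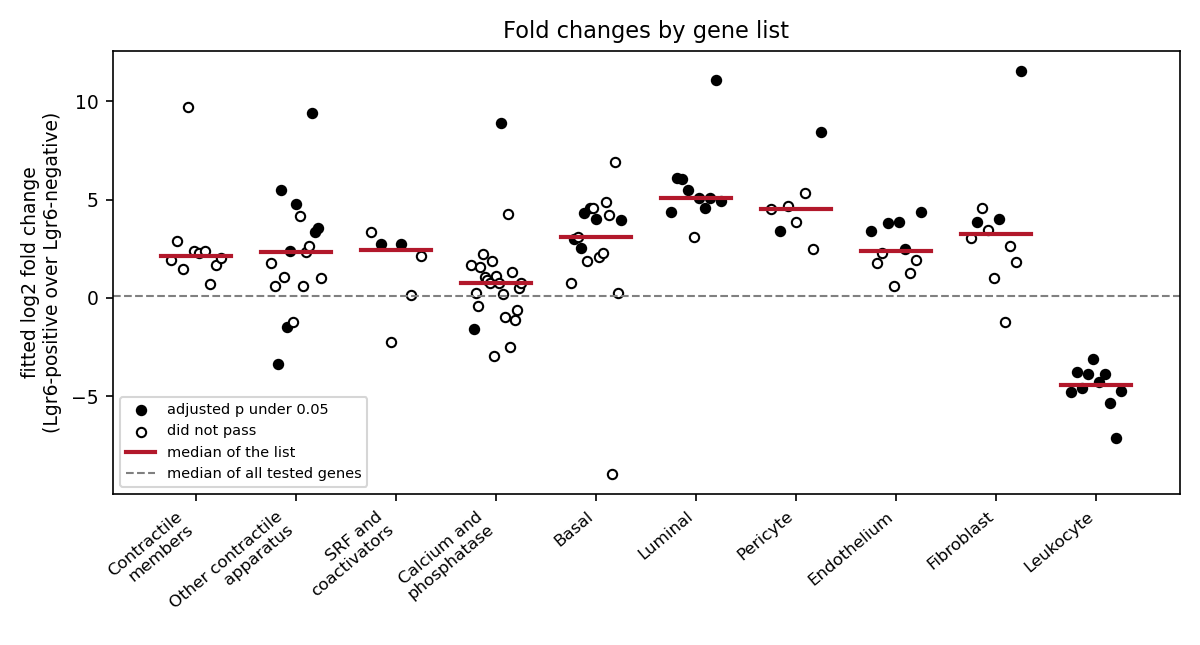
Fitted log2 fold change of each tested gene (Lgr6-positive over Lgr6-negative) in 10 of the lists; filled points passed an adjusted p under 0.05, open points did not, red bars are list medians and the dashed line is the median of all tested genes. The contractile members are all open, with a median of 2.14, below the medians of the basal list (3.11) and the luminal list (5.08).

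Markers of pericytes, some of which make the same proteins, also summed higher in the Lgr6-positive libraries. The 10 pericyte markers summed to 703 and 615 CPM (Lgr6-positive) against 49.3 and 55.6 CPM (Lgr6-negative). Most of each sum came from 1 gene, Anpep, at 373.5 and 460.6 CPM against 44.5 and 35.2 CPM. Within the Lgr6-positive population the pericyte sum was higher in replicate 1. The contractile sum was higher in replicate 2, where Acta2 made up 47.3% of it, against 28.8% in replicate 1. Single members went either way, with Mylk, Tagln and Actg2 higher in replicate 1. Of 7 tested, 2 were higher and 5 did not pass, beside 4.49% higher over all tested genes. Rgs5 was at 259 and 323 counts versus 0 and 1, which is 436 times as much (95% counting interval 78.0 to 17269.6), and Anpep was at 417 ± 61.6 against 39.8 ± 6.56 CPM with a log2 fold change of 3.39 (SE 0.46) and an adjusted p of 0.00318. Rgs5 lost its call when Lgr6-negative replicate 1 (adjusted p = 0.0961) or 2 (0.0615) was left out. Higd1b had no counts in any library, and Kcnj8 had 1 count in 1 Lgr6-positive library. Vtn went the other way, with 22 counts in Lgr6-negative replicate 1 and none elsewhere, and fell below the filter. Anpep, the aminopeptidase CD13, is also made by other cells, among them fibroblasts and myeloid cells. The part of pericytes or vascular smooth muscle in the contractile gene counts was not tested.

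Epithelial and vessel markers also differed. Their counts stand beside 4.49% higher and 4.57% lower over all tested genes. The 18 basal markers summed to 2393 and 2274 CPM (Lgr6-positive) against 193.2 and 221.1 CPM (Lgr6-negative), with 6 of 17 tested genes higher, none lower and a median of 3.11. Among the higher basal genes were the transcription factor Trp63 (log2 fold change 3.95, SE 0.71) and the integrin Itgb4 (4.31, SE 0.82). Nrg1 went the other way without passing (adjusted p = 0.0898). It had 0 counts in both Lgr6-positive libraries, against 79 and 30 in the Lgr6-negative ones. DESeq2 and limma-voom each called 1 basal gene lower. Leaving out either Lgr6-negative library, 3 basal genes were higher, with Itgb4 (adjusted p = 0.0627) lost without replicate 1 and Trp63 (0.0568) without replicate 2. Luminal markers summed to 3927 and 3945 CPM against 161.2 and 109.1 CPM, with 9 of 10 higher. Endothelial markers summed to 1550 and 1813 CPM against 270.9 and 158.0 CPM, with 5 of 10 higher (3 without Lgr6-negative replicate 2). The sums of all 10 fibroblast markers overlapped, at 1771 and 1078 CPM against 1528 and 1633 CPM, but Fn1, fibronectin, made up 1486 and 1551 CPM of the Lgr6-negative sums. The other 9, summed without Fn1 after the values were seen, were at 910 and 639 CPM against 41.8 and 82.5 CPM. Of all 10, 3 were higher. Among them was Pdgfra, with 97 and 751 counts against 0 and 0, which passed the filter through the Lgr6-positive libraries alone. All 10 leukocyte markers were lower. Skeletal muscle markers summed to 2.33 and 5.58 CPM against 11.2 and 15.3 CPM, neither of the 2 tested passed, and 6 of the 10 (Myh1, Myh2, Myh4, Tnnt3, Actn3 and Tnnc2) had no counts in any library.

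**Figure D4:**
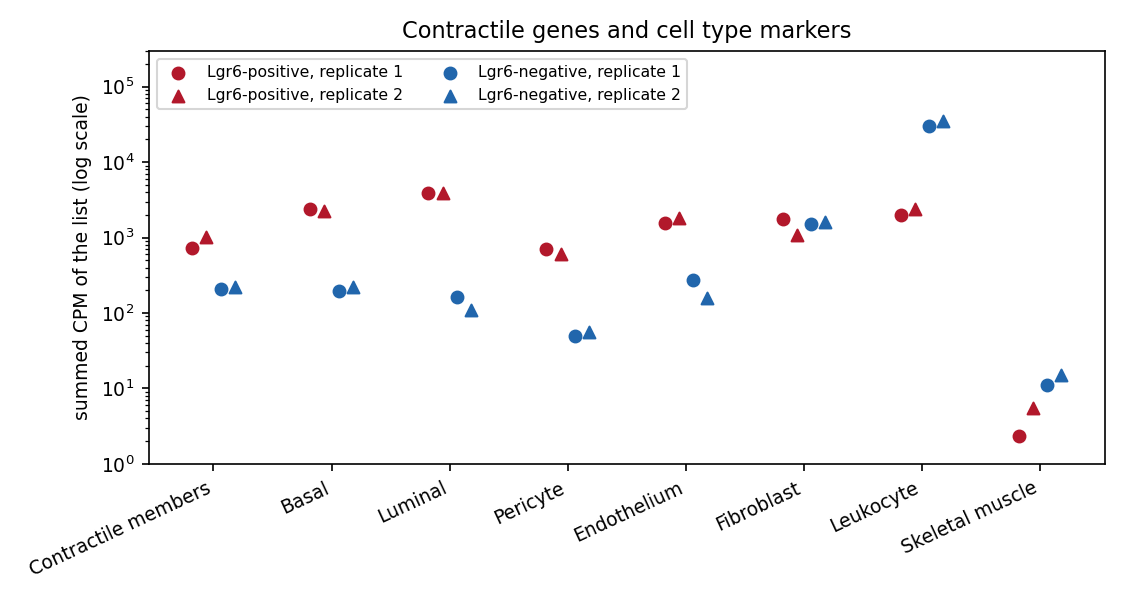
Summed CPM of the contractile genes and of each marker list in the 4 libraries, on a log axis; red points are Lgr6-positive, blue points Lgr6-negative, circles replicate 1 and triangles replicate 2. The contractile, basal, luminal, pericyte and endothelial sums are higher in both Lgr6-positive libraries, the leukocyte and skeletal muscle sums are lower, and the fibroblast sums overlap, with Fn1 making up 1486 and 1551 CPM of them in the Lgr6-negative libraries.

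The members varied among themselves. Each gene's log2 CPM, centred on its mean over the 4 libraries, was set against the mean profile of the 10 members by root mean square distance. Mylk (0.22) and Tagln (0.33) were nearest to that mean, and Lmod1 (1.74) and Actg2 (2.47) farthest. Among named genes outside the list the nearest over these 4 libraries were Mocs2 (0.12), Osbpl7 (0.14), Hsdl2 (0.16), Ldah (0.16) and Egr1 (0.17). Of these Egr1 passed the test (log2 fold change 2.29, SE 0.26, adjusted p = 0.00158), and the other 4 had adjusted p-values from 0.127 to 0.427. With 4 libraries such nearness is a description.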

How the data were processed

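Expected counts for each gene, not scaled for depth, were deposited by the authors for 4 libraries. Per the submitters' processing notes, the tools were STAR 2.4.2a and RSEM 1.2.22 with build mm10, and amplification took 18 PCR cycles per the labels. The annotation used and the strand setting were not given in the sources used here. Values were rounded to whole counts. Replicates differed beyond counting noise (chi-square per degree of freedom 106 and 92.0).

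edgeR 4.0.16 in R 4.3.3 was used with TMM scaling, filterByExpr (minimum count 10), glmQLFit and glmQLFTest, with 1 factor for population. SE was derived as log2 fold change (absolute) divided by the root of the F statistic. Profiles used log2 CPM with a prior count of 2. Positions, exon lengths and transcripts came from GENCODE M21 (GRCm38, also called mm10), and promoter windows from RefSeq (GRCm38.p6). DESeq2 1.42.0 and limma 3.58.1 were alternatives. Python 3.11.15 was used with scipy 1.17.1. The steps were tested on simulated data.

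The members and the 11 other lists were chosen with earlier results of these data known. From each list the rule named up to 4 tested genes with the smallest p-values, with any member needed for its role. It added Lgr6 and the 5 genes nearest in profile. Synpo2, Tns1, Cnn2, Flna, Srf, Myocd, Smtn, Cald1, Des, Ppp1r14a, Acta1, Actc1, Nrg1, Higd1b, Kcnj8, Vtn and Pcsk7 were named after their values were seen. A called gene of the calcium list is not reported here. The fibroblast sum without Fn1 was added after seeing the data.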

Additional observations from a re-analysis of the deposited data

How the results depend on the processing

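The count of contractile genes called higher was 0 as reported, 1 with library-size scaling, DESeq2 size factors, TMM without Rn45s or a minimum count of 30 (Acta2) and in limma-voom (Lmod1), 3 without a filter, 4 in DESeq2 and 0 to 2 when 1 library was left out. None was called lower under any of these 12 alternatives. Over all genes, 524 higher and 533 lower calls became 967 and 854 without a filter and 1412 and 1003 in DESeq2. Lower calls were 327 under library-size scaling, where 65.8% of calls were higher against 49.6%. In DESeq2 58.5% were higher. Leaving out 1 library gave 298 to 718 higher and 263 to 843 lower genes. Library-size scaling raised the median of all genes by 0.46, and the members' median stood 2.10 above it, against 2.04 as reported and 1.43 to 2.32 with 1 library left out. With 1 library left out, log2 fold changes ran across 0 for Actg2 (-6.50 to 9.54), Ckm (-7.02 to 5.96), Srf (-0.54 to 0.63), Cald1 (-0.046 to 1.38) and Smtn (-0.0019 to 1.67), and Pcsk7 turned to 0.10 under library-size scaling. None of these passed. The ratio to basal keratins moved from -2.34 to -1.51 against the whole basal list. Over the members' other values, 102 kept their direction and side of the threshold and 16 newly passed. The causes were not tested.

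The labels do not say whether same-numbered libraries of the 2 populations belong together. Their deviations from their group means correlated at -0.02 across 11661 genes. With 2 libraries in each population, this value cannot decide whether they were paired. With the replicate block, 678 genes were higher and 662 lower, and 2 contractile genes passed (Acta2 and Myh11). Actg2 and Lmod1 had 0 counts in 2 libraries each, which allow up to 3 counts.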
